A study of Homo sapiens with 12 samples.

Results

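Transcript counts of 10 regulators of mTORC1 were measured in LN229, an established human glioblastoma cell line. The genes were the 3 sestrins (SESN1, SESN2, SESN3), DDIT4, which encodes REDD1, its relative DDIT4L, the tuberous sclerosis genes TSC1 and TSC2, DEPTOR, and the Rag GTPases RRAGC and RRAGD. They were chosen by name among the 22257 genes of the counts, with no measured value in the rule but with earlier results of these data known. Each gene is represented by 1 RefSeq transcript, the one marked in the deposited counts or, for TSC2, which has no mark, the one with the highest total. LN229 cells at 80% confluence were put in RPMI medium for 24 hours with 10% serum that had been dialyzed. The glucose concentration was 1 mM in the control group and in the acetate group, which also received 5 mM acetate, and 10 mM in the high-glucose group. Each group had 4 libraries. Acetate added at 10 mM glucose is not analysed here.

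mTORC1 is a protein kinase complex on the lysosome that promotes protein synthesis and restrains autophagy when amino acids, growth factors and energy are at hand. Amino acids reach it through the Rag GTPases, which the GATOR complexes control. Growth factors and energy reach it through RHEB, which the TSC complex holds inactive. The sestrins bind GATOR2, with SESN2 known as a leucine sensor, and REDD1 restrains mTORC1 through the TSC complex. DEPTOR binds mTOR itself. SESN2 and DDIT4 are both known targets of ATF4, the transcription factor of the integrated stress response. Transcript counts do not measure mTORC1 activity.

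Library totals ran from 24.4 M to 27.2 M counts (M, mega), and levels are in CPM (counts per megacount) after TMM scaling. The biological coefficient of variation was 8.51%. 1 mM glucose replicate 3 and acetate replicate 1 stood apart from the rest: across genes, which are not independent replicates, their Spearman correlations of deviation from the mean with transcript length were −0.486 and −0.481, against −0.178 to 0.228 in the other 10 libraries. All 9 glioma and astrocyte markers passed the filter on low counts, among them NES, VIM and CD44, while GFAP stayed at or below 1.47 CPM. PTPRC, AIF1, CD14 and ITGAM, markers of microglia and blood cells, were at or below 0.733 CPM in every library, while CD68, the fifth gene of that list, averaged 58.5 CPM at 1 mM glucose, 65.0 in the acetate group and 20.4 at 10 mM. Nothing in the labels says that replicates came from separate cultures, so the p-values measure only the spread between these libraries, which may be technical.

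More glucose came with far less SESN2 and with less of DDIT4 and both Rag genes, and with more SESN1, SESN3 and DEPTOR. SESN2 fell 12.2-fold from 1 mM to 10 mM glucose, RRAGC 1.84-fold, RRAGD 1.78-fold and DDIT4 1.57-fold. SESN3 rose 2.13-fold, DEPTOR 1.54-fold and SESN1 1.46-fold. TSC1 and TSC2, the core of the TSC complex, fell by less, 1.19-fold and 1.26-fold. With an adjusted p under 0.05 in edgeR counted as called, 3 of the 10 genes were called higher and 7 lower, where 67.5% of the 14416 genes tested were called, 33.7% higher and 33.8% lower. The groups did not overlap for 9 of the 10, against 61.5% of all genes tested. DDIT4L is in the lower and the non-overlapping counts, although it passed the filter on low counts only through groups where it is high. The median log2 fold change of the 10 was −0.49, against 0.00 for all genes. Most genes responded to glucose, so the number called among these 10 is no mark of the pathway.

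Acetate at 1 mM glucose moved fewer of them. SESN2 fell 1.48-fold and RRAGC 1.19-fold, both in the direction seen with 10 mM glucose. Called genes were 2 of 10, both lower, where 13.7% of all genes tested were called, 6.65% higher and 7.09% lower. The groups did not overlap for the same 2, against 15.6% of all genes. The median log2 fold change was −0.11, against 0.00 over all genes. The glucose and acetate comparisons share their 1 mM glucose controls, so the difference between them was tested by comparing 10 mM glucose with acetate. In that test 9 of the 10 genes were called, 3 higher and 6 lower at 10 mM, where 62.8% of all genes were called, 31% higher and 31.8% lower. For 8 of the 10 those groups did not overlap, against 61% of all genes, and the median log2 fold change was −0.40. DDIT4L is again in the lower and the non-overlapping counts, with the same limit.

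**Figure D1:**
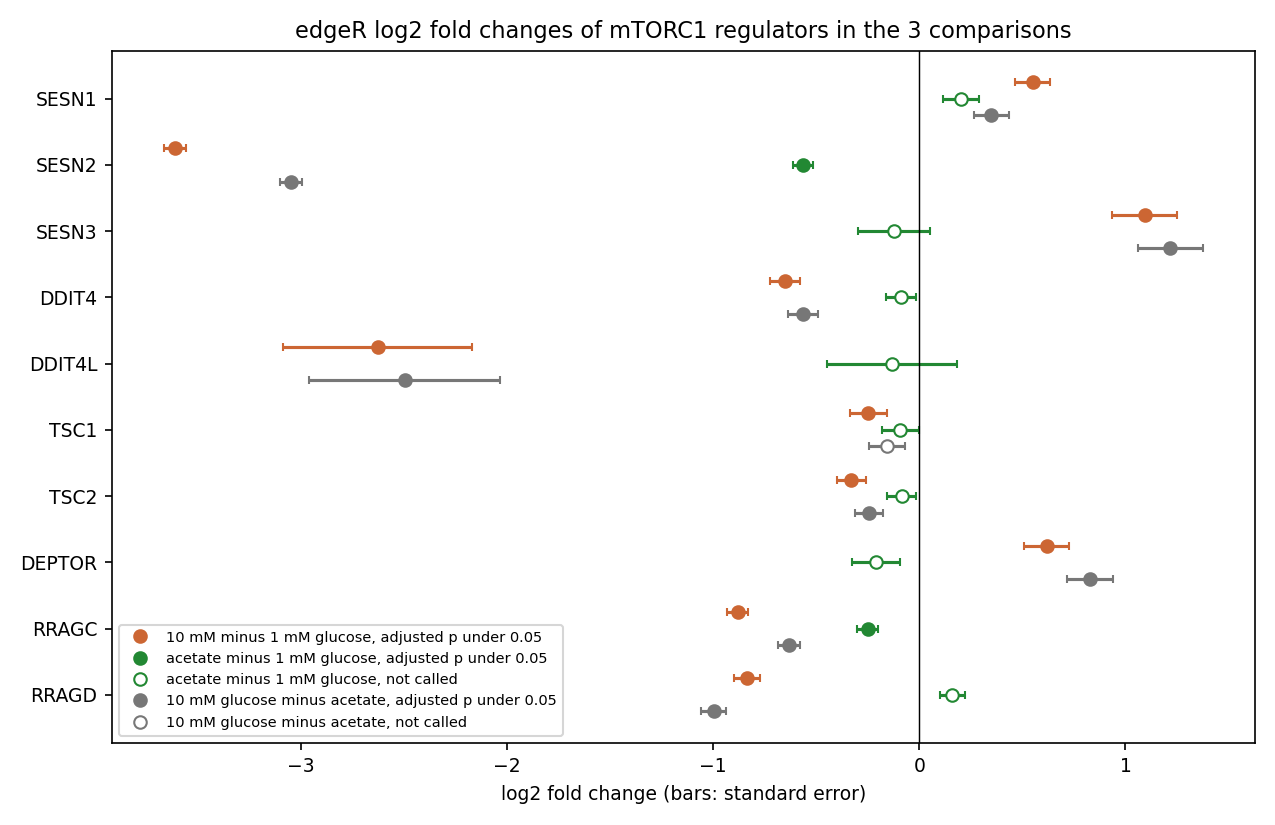
Log2 fold changes of the 10 genes in the 3 comparisons, with bars for the standard error. Filled points have an edgeR adjusted p under 0.05; SESN2 lies far to the left in both comparisons with 10 mM glucose, at −3.61 and −3.05.

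The 300 bases around the start site of SESN2, DDIT4 and RRAGC are shown because SESN2 had the greatest glucose fold change among the 10 genes, DDIT4 the highest level per transcript length, and RRAGC was the other gene called for acetate. They span the annotated start, 5′ to 3′ on the gene's strand, and come from RefSeq on GRCh38.p14, a later build than that of the counts. Capitals mark a motif match and everything else is in lower case.
SESN2 promoter, chr1:28259268-28259567, + strand: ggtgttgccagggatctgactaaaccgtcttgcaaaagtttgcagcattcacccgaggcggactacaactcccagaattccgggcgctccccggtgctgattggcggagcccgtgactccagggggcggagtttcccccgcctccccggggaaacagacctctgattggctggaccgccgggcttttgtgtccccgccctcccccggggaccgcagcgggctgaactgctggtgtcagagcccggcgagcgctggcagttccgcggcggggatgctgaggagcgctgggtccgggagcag
DDIT4 promoter, chr10:72273674-72273973, + strand: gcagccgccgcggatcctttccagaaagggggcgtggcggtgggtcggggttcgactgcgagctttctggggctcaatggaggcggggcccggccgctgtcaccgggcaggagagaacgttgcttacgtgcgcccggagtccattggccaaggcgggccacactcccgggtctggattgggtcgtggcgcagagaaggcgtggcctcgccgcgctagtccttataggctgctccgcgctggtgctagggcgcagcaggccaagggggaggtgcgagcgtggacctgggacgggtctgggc
RRAGC promoter, chr1:38859723-38860022, − strand: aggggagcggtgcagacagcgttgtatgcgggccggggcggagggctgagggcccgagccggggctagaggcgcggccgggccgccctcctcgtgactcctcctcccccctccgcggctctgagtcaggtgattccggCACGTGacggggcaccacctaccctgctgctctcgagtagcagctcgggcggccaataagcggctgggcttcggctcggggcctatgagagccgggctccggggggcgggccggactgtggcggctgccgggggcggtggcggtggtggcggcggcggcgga
Each promoter was searched on both strands for exact matches to TGATGNAAT, the C/EBP-ATF element that ATF4 can bind, CACGTG, the E-box that MYC and the TFEB and TFE3 factors can bind, and GTAAACA, an element that FOXO factors can bind. Windows were searched for 8 of the 10 genes, and no window of DEPTOR or RRAGD was searched. Among these 8, the E-box was found in RRAGC, at positions −112 to −107 relative to the start, and in TSC2, at −114 to −109 relative to the more upstream of its starts. Neither of the other motifs was found in any window of the 8 genes. Over all 35116 promoters of this length, 7.26% held the E-box, 0.991% the C/EBP-ATF element and 3.42% the FOXO element. A match is a description of these letters and not a measured binding site.

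SESN2 was the most responsive sestrin to both nutrients. At 1 mM glucose its libraries held 286, 268, 289 and 290 CPM (replicates 1 to 4), with acetate 183, 190, 199 and 195 CPM, and at 10 mM glucose 23.3, 23.6, 23.2 and 22.7 CPM. The 3 groups stood in a clear order, with every acetate library below every 1 mM library and above every 10 mM library. From 1 mM to 10 mM glucose SESN2 changed by −3.61 on the log2 scale (SE 0.05, edgeR adjusted p = 3.26e-15). With acetate it changed by −0.56 (SE 0.05, edgeR adjusted p = 7.55e-06), a fall from 283 ± 10.1 to 192 ± 7.02 CPM (SD, n = 4 each). In RNA from whole cultures, fewer cells holding a transcript and fewer copies per cell cannot be told apart. At 10 mM glucose SESN2 was 8.26-fold lower than with acetate (log2 fold change −3.05, SE 0.05, edgeR adjusted p = 8.6e-15). Over the 26 alternative settings the acetate value of SESN2 ran from −0.59 to −0.53 and kept its call in each.

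SESN1 and SESN3, the other 2 sestrins, went the opposite way with glucose. SESN1 stood at 7.45, 7.31, 6.16 and 6.44 CPM at 1 mM, 7.32, 8.58, 8.18 and 7.37 CPM with acetate, and 10.3, 9.55, 10.7 and 9.50 CPM at 10 mM. All 10 mM libraries lay above all the others, while the acetate and 1 mM groups overlapped. The rise with glucose was 0.55 on the log2 scale (SE 0.09, edgeR adjusted p = 4.89e-05), and the acetate difference of 0.20 (SE 0.09) was not called (edgeR adjusted p = 0.147). SESN1 is known as a p53 target, and SESN3 as a target of FOXO factors. SESN3 stood at 4.56, 3.70, 3.12 and 3.18 CPM at 1 mM, 2.44, 3.74, 2.99 and 4.2 CPM with acetate, and 7.97, 8.86, 6.49 and 7.75 CPM at 10 mM. Here too the 10 mM libraries were all the highest, and the other groups overlapped. SESN3 rose by 1.09 with glucose (SE 0.16, edgeR adjusted p = 2.25e-05), and its acetate difference was −0.12 (SE 0.17, edgeR adjusted p = 0.684). Both genes were also higher at 10 mM glucose than with acetate, SESN1 by 0.35 (SE 0.08, edgeR adjusted p = 0.00219) and SESN3 by 1.22 (SE 0.16, edgeR adjusted p = 9.78e-06).

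The makeup of the sestrin transcripts therefore differed by glucose. Scaled per transcript length (3509 bases for SESN1, 3453 for SESN2 and 9558 for SESN3), SESN2 made up 97.2 ± 0.341% of the sestrin counts per kilobase at 1 mM glucose, 95.5 ± 0.302% in the acetate group and 64.7 ± 0.568% at 10 mM (SD, n = 4 each). The SESN1 share was 2.32 ± 0.267%, 3.86 ± 0.277% and 27.5 ± 1.42% in the same order. The SESN3 share was 0.452 ± 0.0847%, 0.601 ± 0.132% and 7.83 ± 0.973%. SESN2 was the most abundant sestrin per kilobase in every library, also at 10 mM. The count ratio of SESN2 to SESN1 within a library, which does not depend on scaling between libraries, was 41.7 ± 4.94 at 1 mM, 24.5 ± 1.78 with acetate and 2.32 ± 0.138 at 10 mM. The ranges of this ratio did not overlap between any pair of groups.

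**Figure D2:**
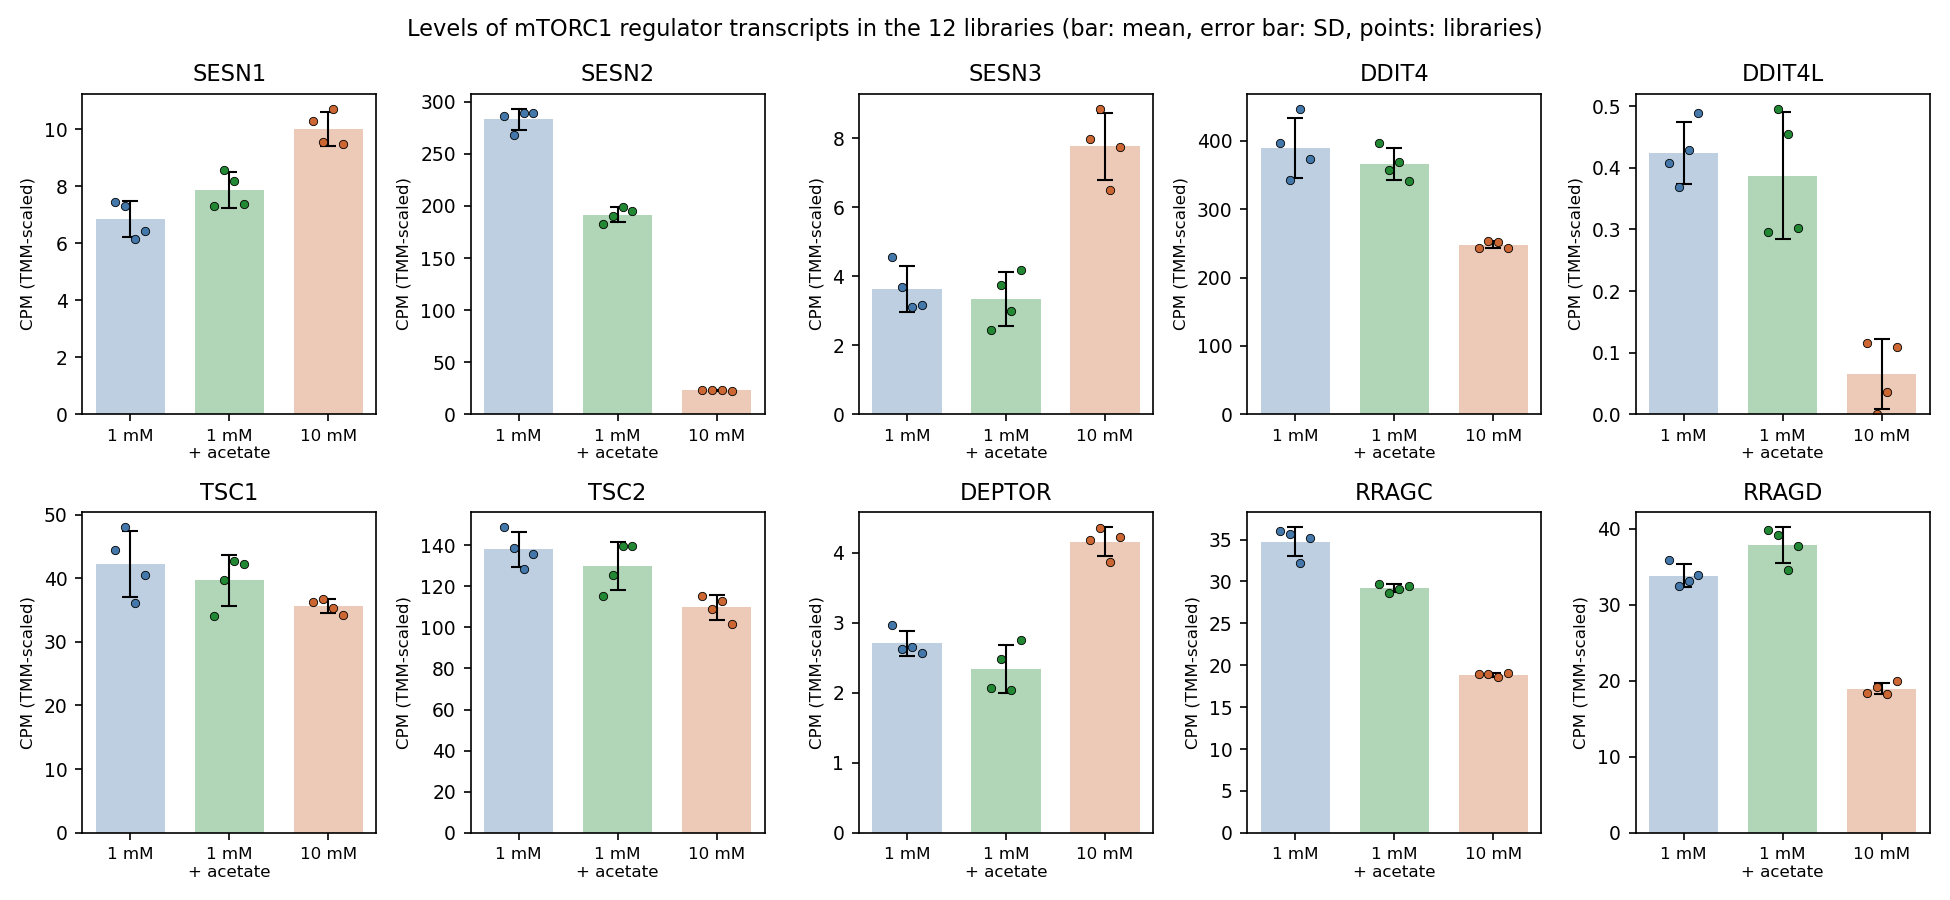
TMM-scaled CPM of each of the 10 genes in every library by group, on a linear axis from 0, with bars for the group mean and error bars for the SD (n = 4). The 10 mM glucose points lie below the others for SESN2, DDIT4, DDIT4L, RRAGC and RRAGD and above them for SESN1, SESN3 and DEPTOR.

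DDIT4, the REDD1 gene, is induced by hypoxia, energy stress and the integrated stress response. Its libraries held 397, 342, 447 and 373 CPM at 1 mM glucose, 397, 358, 369 and 341 CPM with acetate, and 244, 253, 252 and 243 CPM at 10 mM. Every 10 mM library lay below all 8 others, and the acetate and 1 mM groups overlapped. The highest value of the 1 mM group was in replicate 3 and that of the acetate group in replicate 1, the 2 libraries that stood apart. DDIT4 fell by 0.65 on the log2 scale with glucose (SE 0.07, edgeR adjusted p = 1.81e-06), and was lower at 10 mM than with acetate (log2 fold change −0.56, SE 0.07, edgeR adjusted p = 1.03e-05). The acetate difference was −0.09 (SE 0.07, edgeR adjusted p = 0.453). Per kilobase of its 1748-base transcript DDIT4 had the highest level of the 10 genes in each group, with means of 223 CPM per kilobase at 1 mM, 210 with acetate and 142 at 10 mM.

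DDIT4L, also called REDD2, was barely detected. Its raw counts were 10, 9, 11 and 12 in the 1 mM libraries, 8, 13, 12 and 8 with acetate, and 3, 0, 1 and 3 at 10 mM. These low counts came to 42, 41 and 7 over the 4 libraries of each group, and no 10 mM library reached the counts of the others. After allowing for library size, the 1 mM rate was 6.56 times the 10 mM rate, with an exact 95% interval from 2.92 to 17.3 that covers counting error only. The acetate rate was 5.98 times the 10 mM rate (2.66 to 15.8), and the 1 mM rate was 1.10 times the acetate rate (0.697 to 1.73). edgeR gave −2.63 for glucose (SE 0.46, adjusted p = 0.00014), −0.13 for acetate (SE 0.31, adjusted p = 0.819) and −2.49 for 10 mM glucose against acetate (SE 0.46, adjusted p = 0.000282). DDIT4L passed the filter on low counts only through its 1 mM and acetate libraries, so a difference from 10 mM was bound to appear once it was tested, and its calls support nothing about the other genes.

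TSC1 and TSC2, hamartin and tuberin, form the complex in which TSC2 acts on RHEB and TSC1 stabilizes it. TSC2 stood at 149, 139, 128 and 136 CPM at 1 mM glucose, 115, 126, 139 and 140 CPM with acetate, and 115, 109, 113 and 102 CPM at 10 mM. The 10 mM libraries were all below the 1 mM ones, while the lowest acetate library reached down to the highest 10 mM library. TSC2 fell with glucose (log2 fold change −0.33, SE 0.07, edgeR adjusted p = 0.000745) and was lower at 10 mM than with acetate (−0.24, SE 0.07, edgeR adjusted p = 0.00711). TSC1 stood at 44.5, 48.0, 36.0 and 40.5 CPM at 1 mM, 34.0, 39.8, 42.7 and 42.2 CPM with acetate, and 36.2, 36.8, 35.3 and 34.2 CPM at 10 mM. All of its groups overlapped. Its glucose change was −0.25 (SE 0.09, edgeR adjusted p = 0.0223), and it was not called between 10 mM glucose and acetate (−0.16, SE 0.09, edgeR adjusted p = 0.137). The acetate differences were −0.09 for both, with SEs of 0.09 for TSC1 (edgeR adjusted p = 0.531) and 0.07 for TSC2 (edgeR adjusted p = 0.458). The lowest library of the 1 mM group for both genes was replicate 3 and that of the acetate group replicate 1, the 2 that stood apart, and their part in the result was measured by leaving them out.

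These changes in the TSC genes depended on the processing more than those of the sestrins or Rag genes. With library totals in place of TMM scaling the TSC1 glucose change was −0.10 (edgeR adjusted p = 0.293), and the TSC2 difference between 10 mM glucose and acetate was −0.14 (edgeR adjusted p = 0.0851). The TSC1 glucose call was also lost without 1 mM replicate 1, 1 mM replicate 2 or 10 mM replicate 4 (edgeR adjusted p = 0.059, 0.0732 and 0.0583). With the trend over transcript length and GC content removed, the glucose changes were −0.50 for TSC1 and −0.57 for TSC2, and the acetate changes, −0.14 and −0.11, were called (edgeR adjusted p = 0.023 and 0.0247). TSC1 was then also called between 10 mM glucose and acetate (−0.36, edgeR adjusted p = 1.9e-06), as it was without acetate replicate 1 (−0.22, edgeR adjusted p = 0.026) or without both libraries that stood apart (−0.22, edgeR adjusted p = 0.00179). The direction was downward for both genes in all of these settings. The count ratio of TSC2 to TSC1 was 3.29 ± 0.282 at 1 mM, 3.28 ± 0.0968 with acetate and 3.08 ± 0.131 at 10 mM (SD, n = 4 each), ranges that overlapped. Reads of these genes were counted in each of their transcripts: a second TSC1 transcript had the same total of 12240 counts as the one used, and the other TSC2 transcripts held 99.8% and 99.0% of the one used.

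DEPTOR, which binds and inhibits mTOR, was a low transcript. It stood at 2.97, 2.63, 2.65 and 2.57 CPM at 1 mM glucose, 2.07, 2.48, 2.04 and 2.76 CPM with acetate, and 4.18, 4.36, 3.86 and 4.22 CPM at 10 mM. The 10 mM libraries were all above the 8 others, and the acetate and 1 mM groups overlapped. DEPTOR rose by 0.62 with glucose (SE 0.11, edgeR adjusted p = 0.000148), and was higher at 10 mM than with acetate by 0.83 (SE 0.11, edgeR adjusted p = 1.24e-05). With acetate the difference was −0.21 (SE 0.12, edgeR adjusted p = 0.265), the opposite sign to that with glucose but not called.

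RRAGC and RRAGD encode alternative partners of RagA and RagB in the Rag heterodimer that recruits mTORC1 to the lysosome. RRAGC stood at 36.0, 35.6, 32.2 and 35.2 CPM at 1 mM glucose, 29.7, 28.6, 29.1 and 29.5 CPM with acetate, and 19.0, 18.9, 18.6 and 19.0 CPM at 10 mM. Its groups followed the same order as those of SESN2, without overlap. RRAGC fell by 0.88 with glucose (SE 0.05, edgeR adjusted p = 1.62e-09) and by 0.25 with acetate (SE 0.05, edgeR adjusted p = 0.00499). At 10 mM it was lower than with acetate by a log2 fold change of −0.63 (SE 0.05, edgeR adjusted p = 8.72e-08). Over the 26 alternative settings the acetate change ran from −0.29 to −0.21, with an adjusted p of at most 0.0386. Its promoter is the one with the E-box in capitals.

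RRAGD followed glucose but not acetate. It stood at 35.9, 32.4, 33.1 and 33.9 CPM at 1 mM, 39.8, 39.2, 34.5 and 37.7 CPM with acetate, and 18.4, 19.2, 18.3 and 19.9 CPM at 10 mM. The 10 mM libraries were again the lowest, and 3 of the 4 acetate libraries exceeded every 1 mM library. RRAGD fell by 0.84 with glucose (SE 0.06, edgeR adjusted p = 1.72e-08), close to the fall of RRAGC, and by a log2 fold change of −0.996 from acetate to 10 mM glucose (SE 0.06, edgeR adjusted p = 3.37e-09). Its acetate difference was 0.16 (SE 0.06) and was not called (edgeR adjusted p = 0.0857). It was called with library totals (0.20, edgeR adjusted p = 0.0373) and without acetate replicate 3 (0.20, edgeR adjusted p = 0.0479).

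The balance of the Rag genes shifted with acetate. The count ratio of RRAGD to RRAGC was 0.974 ± 0.0494 at 1 mM glucose, 1.29 ± 0.0812 in the acetate group and 1.00 ± 0.0340 at 10 mM (SD, n = 4 each). It ran from 1.19 to 1.37 in the acetate libraries, above the ranges of 0.910 to 1.03 at 1 mM and 0.969 to 1.05 at 10 mM, which overlapped. This is a description of counts within libraries, with no test. Leaving out each acetate library in turn kept the mean between 1.27 and 1.33. RRAGA and RRAGB, the genes of RagA and RagB, were chosen after their values were seen. Their glucose changes were 0.08 (SE 0.08, edgeR adjusted p = 0.4) and −0.08 (SE 0.10, edgeR adjusted p = 0.507). With acetate RRAGA was at −0.16 (SE 0.08, edgeR adjusted p = 0.201) and RRAGB at 0.15 (SE 0.10, edgeR adjusted p = 0.38), neither called. Between 10 mM glucose and acetate RRAGA was called higher at 10 mM (0.23, SE 0.08, edgeR adjusted p = 0.0166), with groups that overlapped, and RRAGB was at −0.23 (SE 0.10, edgeR adjusted p = 0.0647).

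**Figure D3:**
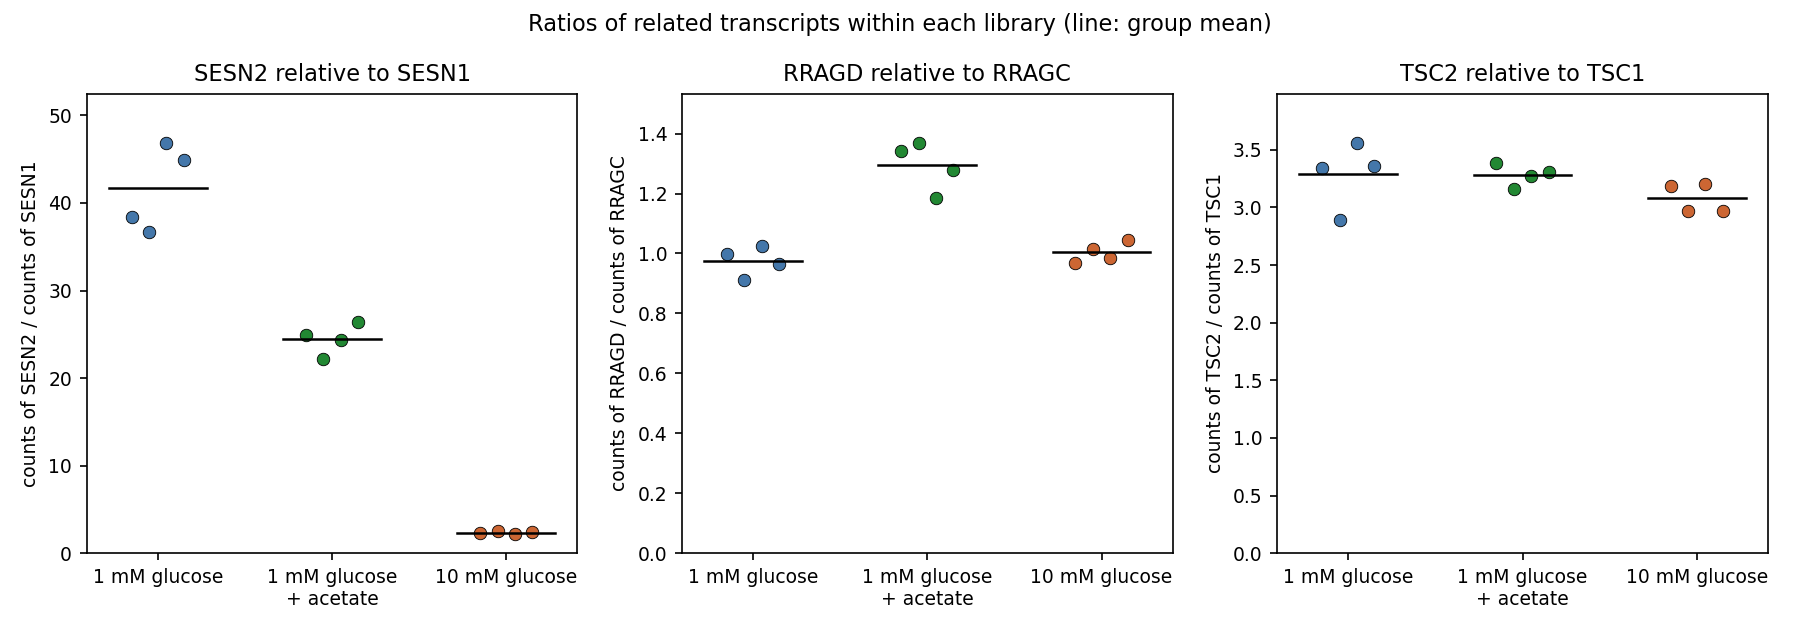
Count ratios within each library for SESN2 to SESN1, RRAGD to RRAGC and TSC2 to TSC1, by group, with a line at the group mean. The SESN2 to SESN1 ratio is lowest at 10 mM glucose, and the RRAGD to RRAGC ratio is highest with acetate, while the TSC2 to TSC1 ratios overlap.

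Other genes of the mTORC1 pathway moved in both directions with glucose. Of 52 listed genes, 51 were tested; 33 were called with 10 mM glucose, 14 higher and 19 lower. That is 64.7% of them, against 67.5% of all genes tested, and the median log2 fold change was −0.13. FLCN, the folliculin gene, whose protein acts on RagC and RagD, fell from 48.2 ± 2.26 to 20.7 ± 0.795 CPM (log2 fold change −1.22, edgeR adjusted p = 1.88e-10), and its partner FNIP1 changed by −1.01 (edgeR adjusted p = 8.14e-07). Of the 11 genes of Rag, Ragulator, SLC38A9 and folliculin, 5 were called, all lower. That is 45.5%, where 67.5% of all genes tested were called and 33.8% were called lower. GATOR, KICSTOR and amino acid sensor genes were called in 11 of 15 (73.3%), 5 higher and 6 lower. The substrates and outputs were called in 9 of 10 (90%), 4 higher and 5 lower. Here the translation repressors diverged: EIF4EBP2 rose by 1.19 (edgeR adjusted p = 6.98e-10) and EIF4EBP1 changed by −0.83 (edgeR adjusted p = 1.81e-05). EIF4EBP3, named after its value was seen, changed by −0.45 (edgeR adjusted p = 0.00785). ULK1, the autophagy kinase, rose by 0.39 (edgeR adjusted p = 0.000669).

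The mTOR complex subunits were called in 4 of 8, 2 in each direction, and RHEB with the TSC complex partners in 4 of 7, 3 higher and 1 lower. These are 50% and 57.1% of the genes tested in each group, against 67.5% of all genes. Of the called subunits, MLST8 changed by −0.70 (edgeR adjusted p = 3.01e-05), RICTOR by −0.55 (edgeR adjusted p = 0.00734) and PRR5L by 0.65 (edgeR adjusted p = 0.00452), all 3 named after their values were seen. The 8 subunits include those of mTORC2, the other mTOR complex, and RICTOR and PRR5L belong to it and not to mTORC1. The RICTOR groups overlapped, and PRR5L averaged only 2.33 CPM over all libraries. MTOR rose by 0.28 (edgeR adjusted p = 0.0481), a call lost in 12 of 25 alternatives and a value of 0.01 with the length and GC trend removed. RPTOR, the raptor gene, was at 0.02 (edgeR adjusted p = 0.871), and with that trend removed it was at −0.23 (edgeR adjusted p = 3.94e-05). RHEB fell by 0.50 (edgeR adjusted p = 1e-04), and AKT1, a kinase that inhibits the TSC complex, rose by 0.47 (edgeR adjusted p = 9.22e-06). RPS6KB1, the S6 kinase gene, rose by 0.22 (edgeR adjusted p = 0.0109), but its value was 0.09 with the trend removed (edgeR adjusted p = 0.102).

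With acetate 4 of the 51 pathway genes were called, all lower, which is 7.84% against 13.7% of all genes tested. AKT1S1, which encodes the mTORC1 inhibitor PRAS40, changed by −0.39 (edgeR adjusted p = 0.0104) and GRB10, an adaptor and mTORC1 substrate, by −0.19 (edgeR adjusted p = 0.0223). The others were RHEB, at −0.27 (edgeR adjusted p = 0.0425), and SEC13 of GATOR2, at −0.23 (edgeR adjusted p = 0.0405), also named after its value was seen. RHEB lost its acetate call in 12 of 26 alternatives, and GRB10 in 3, while AKT1S1 kept its call in all 26. FLCN was not called for acetate (−0.17, edgeR adjusted p = 0.0585), but its groups did not overlap and it gained a call in 9 of 26 alternatives. Leaving out 1 library gave between 1 and 7 called genes. Between 10 mM glucose and acetate 32 of the 51 were called, 12 higher and 20 lower, which is 62.7% against 62.8% of all genes tested. Among called genes averaging at least 5 CPM, without overlap between groups, the highest log2 fold changes were those of EIF4EBP2 (1.16), ULK1 (0.48) and AKT1 (0.45), and the lowest those of FLCN (−1.05), FNIP1 (−0.90) and RPS6 (−0.68), a ribosomal protein gene.

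**Figure D4:**
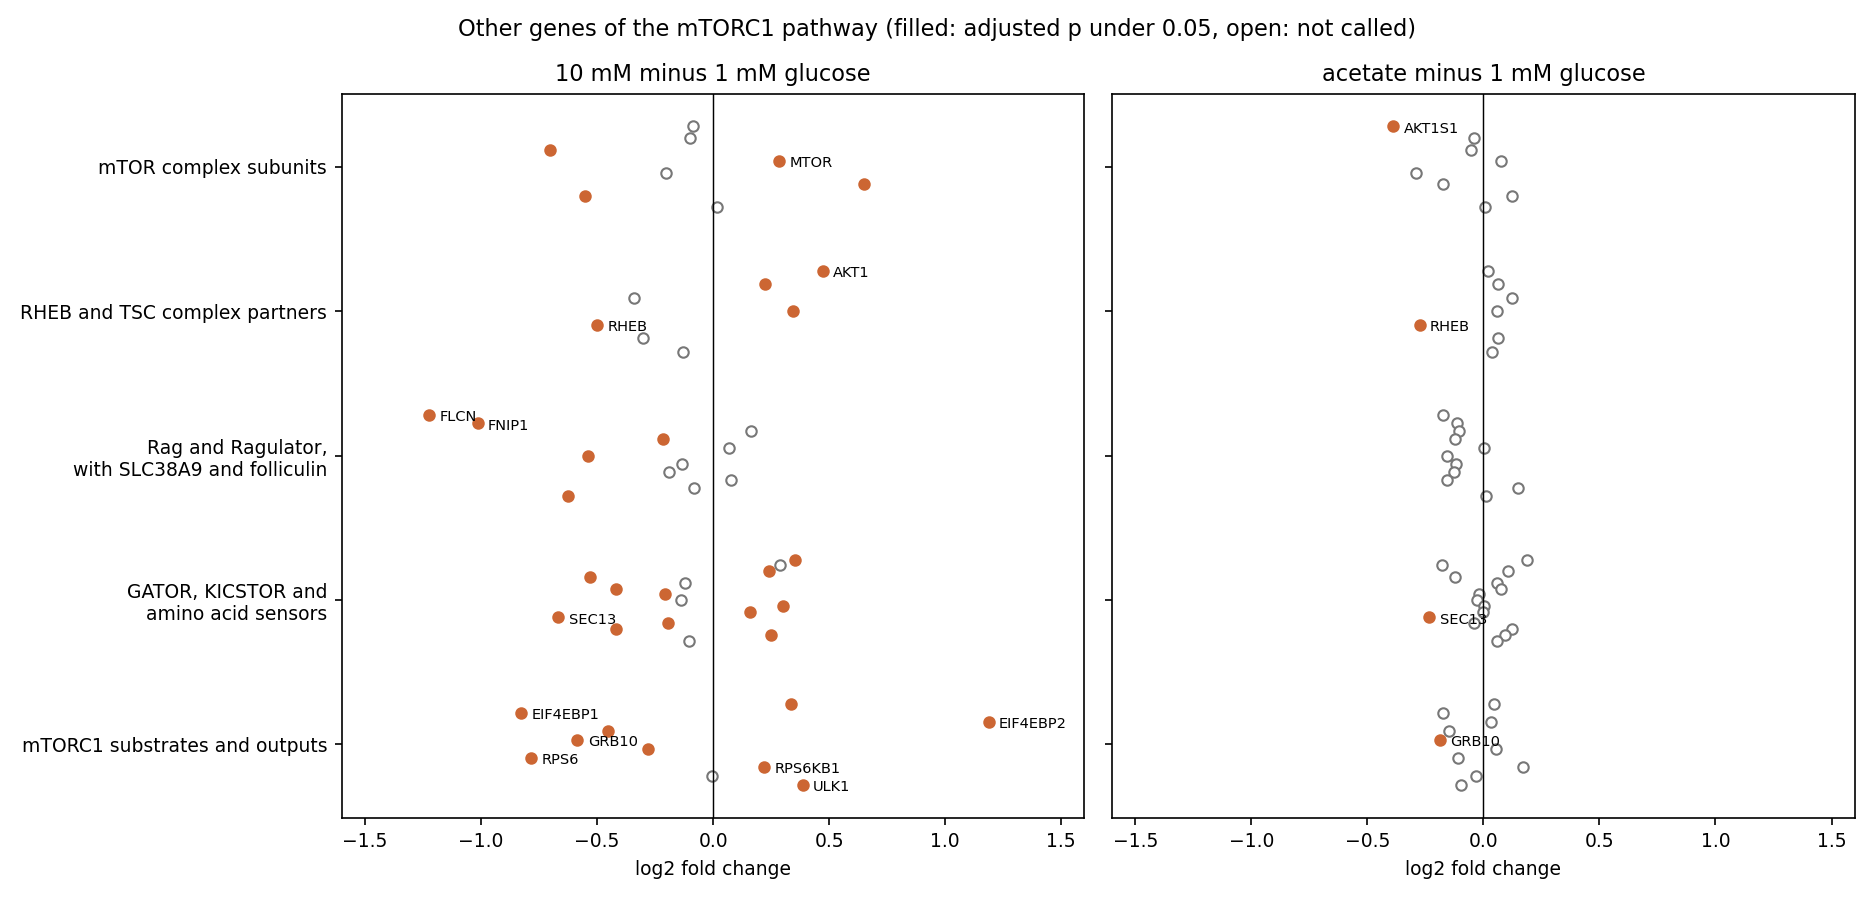
Log2 fold changes of the 51 other tested pathway genes in 5 groups, for 10 mM against 1 mM glucose on the left and acetate against 1 mM glucose on the right; filled points have an edgeR adjusted p under 0.05. On the left 14 filled points lie above 0 and 19 below, and on the right the 4 filled points all lie below 0.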

How the data were processed

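RNA of LN229 cells was extracted with Trizol and sequenced in 12 standard Illumina libraries, per the labels. What the authors deposited for each library is a whole-number count for 34917 RefSeq transcripts, not normalized. The build was hg19 per the submitters' processing notes. The aligner, the counting tool and the strand were not given in the sources used here. Transcripts were not added up, since reads were counted in each.

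The tests used edgeR 4.0.16 under R 4.3.3, after a filterByExpr filter: a quasi-likelihood F test with TMM factors and 1 mean per group over all 12 libraries and Benjamini-Hochberg adjustment over 14416 genes. SEs come from the F statistic. Lengths came from GENCODE v29, by accession for these 10 genes. Promoters came from RefSeq. The procedure was run on simulated counts, with changes set in some genes of the acetate group only and no length trend. The outcome of that run is not reported here and supports none of these results. The 10 genes and the pathway list were chosen with earlier results of these data known. All 10 genes are named. Of the pathway list, MTOR, RPTOR, RHEB, EIF4EBP1 and RPS6KB1 are named throughout, and in each comparison up to 3 called genes each way with the largest change, averaging at least 5 CPM and without overlap between groups.

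Alternatives were DESeq2 1.42.0 size factors and its Wald test, library totals, limma-voom (limma 3.58.1), no filter, a mean of at least 5 CPM, a fit of only the 8 libraries compared, a replicate block, other transcript choices, and leaving out each library or both that stood apart. An offset that takes out the length and GC trend of every library (spline, 5 degrees of freedom), alone or together with the block, was chosen after seeing the data. No date or batch is used here. Some values that the naming rule and marker lists would give are not reported here.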

Additional observations from a re-analysis of the deposited data

Results flagged for a closer look

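SESN2 in 1 mM glucose replicate 2 was at 268 CPM, while the other 3 libraries of that group lay between 286 and 290 CPM. Its gap to the nearest library was 0.841 of the range of the group, above Dixon's 95% critical value for 4 samples. Of 30 groups looked at (10 genes in 3 groups), this was the only 1 so marked, and chance marks about 1 in 20 groups. Without this library the SESN2 changes were −3.64 for glucose and −0.59 for acetate.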

How the results depend on the processing

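For the 10 genes, 751 of 766 values under 26 alternatives kept their side of the threshold, 5 lost a call, 10 gained one and 0 turned a called direction. The acetate difference of SESN3, not called, turned from −0.12 to 0.0034 without 1 mM replicate 1 and to 0.0026 without acetate replicate 1. The number called ran from 7 to 10 for glucose, 2 to 4 for acetate and 6 to 10 for 10 mM glucose against acetate; the counts of 7 and 6 came with the mean filter of 5 CPM, which tests fewer of these genes. The acetate count was 4 with the length and GC trend removed, also with the replicate block (TSC1 and TSC2 joined). RPTOR turned from 0.02 to −0.23 for glucose and from 0.01 to −0.21 for 10 mM glucose against acetate with that trend removed, and to −0.23 and −0.21 with the block added; the cause was not tested.

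Over all genes, 1980 were called for acetate. This was 1056 with only the 8 libraries compared, 3728 without both libraries that stood apart, and 3701 with the trend removed (3263 with the block). Leaving out 1 library gave 1196 to 2956, with 1294 without 1 mM replicate 1, 1278 without 1 mM replicate 4, 1318 without acetate replicate 3 and 1196 without acetate replicate 4. The acetate count of 4 pathway genes was 2 with library totals, 1 with only the 8 libraries and 11 without both. It was 7 without acetate replicate 1, 1 without acetate replicate 4, 2 without 1 mM replicate 1 or 4, acetate replicate 2 or 3 or any 10 mM library, and 4 or 5 without 1 mM replicate 3 or 2. Library totals moved the median log2 fold change of all genes to 0.14, 0.04 and 0.10 for glucose, acetate and 10 mM glucose against acetate, and the share of calls that were higher from 49.9%, 48.4% and 49.4% to 63.3%, 65.2% and 60.8%.

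With the replicate block 10, 2 and 9 of the 10 genes were called and no call of theirs changed, while 9613, 1780 and 8899 of all genes were called. No clear pairing by number was seen: 3 of 12 same-numbered pairs correlated above 0.1 (−0.365 to 0.27), and 5 of 12 libraries correlated best with their own number. This check cannot show that the numbers do not pair the libraries. Depth limits DDIT4L most, at 0 to 13 counts per library.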

Other observations

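The genes whose levels ran most like those of SESN2, DDIT4 and SESN3 were taken from the 11183 genes averaging at least 5 CPM, by Pearson's r of log2 CPM over the 12 libraries. The libraries share 3 group means, so many genes score high, and the values are descriptions. For SESN2 these were PPP1R15A (r = 0.9988), which encodes the stress phosphatase subunit GADD34, MYC (0.9985) and MTHFD1L (0.9985), an enzyme of mitochondrial folate metabolism, with 1209 genes above 0.95. PPP1R15A changed by −3.80 with glucose and −0.47 with acetate on the log2 scale, MYC by −2.66 and −0.41, and MTHFD1L by −1.22 and −0.20. For DDIT4 they were YIPF2 (0.9943), VEGFB (0.9922), a growth factor, and CDK2AP2 (0.9921), with 740 genes above 0.95. For SESN3, the highest riser of the 10 genes, they included C10orf26 (0.9823) and LIX1L (0.9785), with 76 genes above 0.95.

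Markers of another cell type moved with the groups. The sum of the 5 microglia and blood markers was 54.9 to 65.4 CPM at 1 mM glucose, 62.5 to 69.1 with acetate and 18.5 to 22.5 at 10 mM, nearly all from CD68, a lysosomal protein gene. The part of these markers in the results was not tested.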
